A study of Mus musculus with 12 samples.

Results

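The RNA of neutrophils that had entered the inflamed peritoneum (PT) of wild-type (WT) mice was compared with that of neutrophils from the bone marrow (BM). Of the 28987 genes listed, the 11571 with at least 1 TPM (transcripts per 1e+06, the share of a library that a gene takes) in at least 3 of these 6 libraries were kept, and all of them were tested. There were 3 BM WT libraries, numbered 4, 5 and 6 in the deposited table, and 3 PT WT libraries, numbered 10, 11 and 12, out of 12 libraries in the series. Values of a gene are given below in that order of libraries, those of BM WT as marrow and those of PT WT as peritoneum.

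The mice were of the fvb strain, carried no transgene, and had received 2 mL thioglycollate, an irritant broth, into the peritoneum 6 h earlier according to the labels. The study's methods give other times for the same collection. They also state that peritoneal and marrow cells came from each mouse and were sorted by flow cytometry straight into lysis reagent, so the BM WT cells were those of injected mice as well. The labels name macrophages as the source, whereas the design text and the study name neutrophils, gated elsewhere in the study as CD11b+F4/80-GR1++ cells. No age or sex is given. The other 6 libraries came from MRP8-Bcl2 mice, in which the MRP8 promoter drives Bcl2 in the myeloid lineage, and they enter here only through the shared estimate of the spread and through the test of a difference between genotypes. The label of library 9, one of them, is in doubt by its level of Bcl2. The pseudogene Gm12191, flagged below, was at 0.0896 TPM in it and at no more than 0.0862 in libraries 7 and 8, the other PT Bcl2 libraries. In the 6 WT libraries it was at 44.9 to 309.5 TPM. It was found by a test that took library 9 as PT Bcl2, so its level is no independent check of the label. Library 9 held Bcl2 at 0.695 TPM, against 58.6 to 333 in the other 5 from MRP8-Bcl2 mice and 0.219 to 2.37 in the 6 WT libraries. Nothing states which mouse a library came from, so the p-values measure the spread between these libraries.

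Neutrophils are built in the marrow. Their granule proteins are made in sequence, with the primary (azurophil) granule proteins first and the secondary (specific) and tertiary granule proteins later, and cell division stops before the last steps. Cells that leave the blood for an inflamed cavity switch on chemokine, cytokine and survival genes, many of them through the NF-kB and AP-1 families of transcription factors, and are later cleared by macrophages that read signals such as calreticulin and CD47 on their surface.

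**Figure D1:**
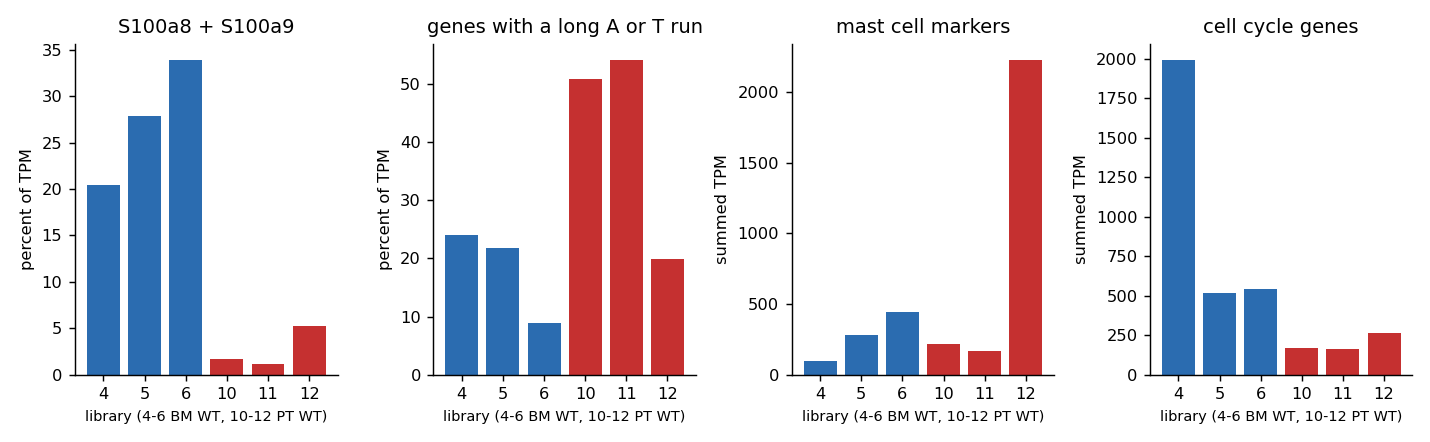
Bars give 4 measures for each of the 6 WT libraries, BM WT in blue and PT WT in red. They are the percent of TPM on S100a8 and S100a9, the percent of TPM on 108 genes with a long run of A or T, the summed TPM of 10 mast cell markers and the summed TPM of 24 cell cycle genes. Library 12 stands apart by its mast cell markers (2229 TPM, most of it Hdc) and library 4 by its cell cycle genes (1995 TPM).

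The neutrophil identity of the libraries was checked on 10 markers, of which 3 were lower and none higher in PT WT (S100a8, S100a9 and Ly6g, median -0.27). S100a8 and S100a9, the calprotectin subunits that dominate neutrophil RNA, together took 20.5, 27.8 and 33.9% of all TPM in BM WT and 1.65, 1.15 and 5.21% in PT WT. Both fell (log2 fold change -3.62, SE 0.69, adjusted p 0.00959 for S100a8 and log2 fold change -3.73, SE 0.63, adjusted p 0.0049 for S100a9, by limma with Benjamini-Hochberg adjustment), and the groups did not overlap. Csf3r, the receptor for granulocyte colony-stimulating factor, was at 183, 892 and 1038 TPM in marrow and 2478, 1839 and 2048 in peritoneum. Itgam, which encodes CD11b, was at 575, 785 and 657 TPM in marrow and 978, 795 and 1754 in peritoneum. Neither was called (adjusted p 0.164 and 0.554). They were the 2 of the 10 markers with all PT WT values above BM WT, while 3 had all below. Among all tested genes, 16.1% lay above and 8.73% below in this way. Of the 10 markers, 5 had a positive and 5 a negative log2 fold change.

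Libraries 12 and 4 stood apart from the others. Library 12 held 4 Y-linked genes at 10.4 to 276 TPM, and the other 5 libraries held none of them above 13.5, so no WT marrow library matched it. Its mast cell markers summed to 2229 TPM against 170.2 and 214 in the other PT WT libraries and 94.4 to 443 in BM WT. In every library most of this sum was the single gene Hdc. Library 4 held Retnlg, a gene of mature neutrophils, at 928 TPM against 20198 and 18941 in libraries 5 and 6, and its 24 cell cycle genes summed to 1995 TPM against 514 and 542. Genes whose transcripts hold 31 or more A, or T, in a row took 24.1, 21.7 and 8.93% of TPM in BM WT and 50.8, 54.2 and 20% in PT WT. Since TPM is a share, this lowers the TPM of every other gene, while the smaller share of S100a8 and S100a9 in PT WT raises it. All other genes together held 55.4, 50.4 and 57.1% of TPM in BM WT and 47.55, 44.65 and 74.8% in PT WT. A single read on a 1 kb transcript equalled 0.435 to 1.49 TPM in BM WT and 0.343 to 0.451 in PT WT, so values near 1 TPM rest on a few reads. Pearson correlations over all tested genes were 0.708 to 0.768 within BM WT, 0.761 to 0.841 within PT WT and 0.587 to 0.712 between them. In bulk RNA, fewer cells of a type and less RNA per cell cannot be told apart.

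Of the 11571 tested genes, 268 were higher in PT WT than in BM WT (2.32% of those tested) and 193 were lower (1.67%), or 3.98% in either direction. A call needed a 2-fold change and an adjusted p under 0.05. The median log2 fold change was 3.19 among the higher genes (1.47 to 6.63) and -3.53 among the lower (-7.46 to -1.63), on the scale of log2(TPM + 1). This scale shrinks the changes of low genes. The median of all tested genes was 0.25. All 268 higher genes and 192 of the 193 lower genes had 3 values of one group beyond all 3 of the other, where 16.1% of tested genes did so upward and 8.73% downward. A lack of overlap given for a single called gene therefore adds no support to its call. Of the called genes, 75 higher and 49 lower ones reached 1 TPM in only 3 libraries. They passed the filter only through the group where they were high, so their separation adds no support to the call. Protein-coding genes made up 211 of the higher and 183 of the lower genes, and pseudogenes 33 and 7. The exception among the lower genes was Mmp8, the neutrophil collagenase, at 279, 3403 and 2224 TPM in marrow and 38.1, 29.6 and 317 in peritoneum, where library 12 lay above library 4.

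The number of calls rested on single libraries. Only 58 of the 268 higher and 53 of the 193 lower genes were called in every one of the 6 fits from which a single library was left out. Without library 12, 141 genes were higher and 130 lower, without library 4, 105 and 79, and without library 10, 76 and 62. Without libraries 5, 6 and 11 in turn, the counts were 188 and 140, 118 and 123, and 125 and 88. No gene called here was called in the opposite direction in any of these fits. Of the calls, 58.1% were higher. This share was 44.6% once libraries were centred on their medians, 46.6% once they were quantile normalized and 81.3% with the genes of long A or T runs left out. The median log2 difference of all tested genes, 0.25 as deposited, was 0.09, 0.04 and 0.71 under these scalings. With S100a8 and S100a9 left out as well, a setting chosen after seeing the data, the share was 59.9% and the median 0.32.

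**Figure D2:**
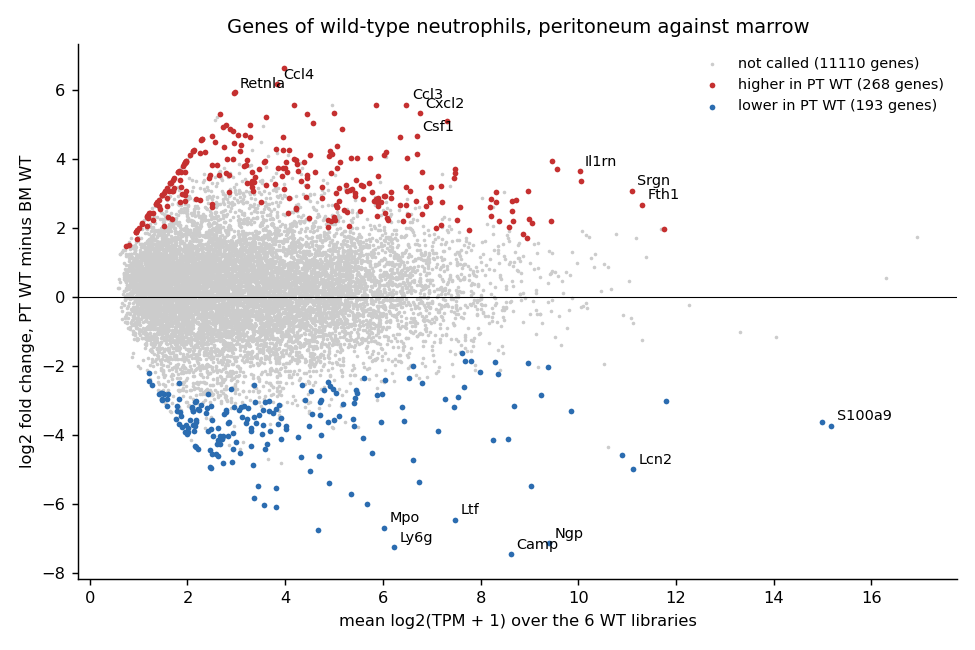
Each point is 1 of the 11571 tested genes. The x axis is the mean log2(TPM + 1) over the 6 WT libraries and the y axis the log2 fold change, PT WT minus BM WT. The 268 genes called higher are red, the 193 called lower are blue and the rest are grey, and Camp has the largest fall (-7.46).

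The 15 protein-coding genes with the largest rise and the 15 with the largest fall were taken from called genes whose groups did not overlap. Of those that rose, 5 encoded chemokines, and of those that fell, 9 encoded granule proteins and 5 histones. The promoters of some of them hold the letters that NF-kB or C/EBP factors are known to bind. RefSeq windows of GRCm38.p6, from 250 bases before each gene's start, were matched by symbol for 8539 tested genes, among them 178 of the higher and 144 of the lower genes. The kappa B letters, GGG and TTTCC separated by 2 bases of any kind, were searched on both strands, as were the motifs below. They lay in 11 of the 178 windows of higher genes (6.18%), in 1 of the 144 of lower genes (0.694%) and in 124 of the 8539 (1.45%). The 11 genes were Cxcl1, Cxcl2, Cxcl3, Csf1, Nfkbia, Tnfaip3, Dusp5, Casp4, Mcl1, Echdc3 and Polg2, and the single lower gene was Pglyrp1. The windows of 4 of them are shown, since they belong to a pair of chemokines, the growth factor Csf1 and the NF-kB inhibitor Nfkbia. Each is printed 5′ to 3′ on the gene's strand up to the start of the transcript, with the match, in either orientation, in capitals. Their positions are chr5:90903649-90903870, plus strand for Cxcl2, chr5:90785851-90786100, plus strand for Cxcl3, chr3:107760470-107760719, minus strand for Csf1 and chr12:55492648-55492897, minus strand for Nfkbia.
Cxcl2: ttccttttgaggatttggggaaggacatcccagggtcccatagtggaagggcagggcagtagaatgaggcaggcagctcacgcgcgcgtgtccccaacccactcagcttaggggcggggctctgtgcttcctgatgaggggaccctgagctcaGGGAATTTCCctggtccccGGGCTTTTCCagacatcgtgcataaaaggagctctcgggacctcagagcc
Cxcl3: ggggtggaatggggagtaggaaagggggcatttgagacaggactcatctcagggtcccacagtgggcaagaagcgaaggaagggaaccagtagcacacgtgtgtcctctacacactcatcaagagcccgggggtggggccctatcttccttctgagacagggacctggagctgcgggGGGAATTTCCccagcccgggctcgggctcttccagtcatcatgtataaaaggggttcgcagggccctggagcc
Csf1: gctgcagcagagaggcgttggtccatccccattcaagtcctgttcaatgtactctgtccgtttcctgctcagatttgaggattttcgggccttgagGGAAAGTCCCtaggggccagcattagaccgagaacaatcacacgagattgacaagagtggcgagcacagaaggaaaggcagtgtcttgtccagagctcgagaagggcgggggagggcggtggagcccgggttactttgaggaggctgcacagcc
Nfkbia: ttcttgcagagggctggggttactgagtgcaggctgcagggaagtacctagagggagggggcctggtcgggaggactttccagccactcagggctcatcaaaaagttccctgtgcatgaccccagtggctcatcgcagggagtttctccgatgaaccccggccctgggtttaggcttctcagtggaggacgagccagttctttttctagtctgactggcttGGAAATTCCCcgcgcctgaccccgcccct

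Cxcl2 holds 2 matches, which begin 97 and 78 bases before its RefSeq start, and Cxcl3 holds 1, which begins 73 bases before its own. The match begins 154 bases before the start in Csf1 and 29 bases before it in Nfkbia. The C/EBP letters TTNNGCAA lay in 22 of the 144 windows of lower genes (15.3%), in 21 of the 178 of higher genes (11.8%) and in 663 of the 8539 (7.76%). The windows of 3 secondary granule genes are shown in the same way, since these genes fell together.
Ngp: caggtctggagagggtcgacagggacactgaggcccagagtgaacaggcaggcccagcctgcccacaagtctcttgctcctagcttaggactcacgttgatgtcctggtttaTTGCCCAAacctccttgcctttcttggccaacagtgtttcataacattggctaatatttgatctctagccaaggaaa
Ltf: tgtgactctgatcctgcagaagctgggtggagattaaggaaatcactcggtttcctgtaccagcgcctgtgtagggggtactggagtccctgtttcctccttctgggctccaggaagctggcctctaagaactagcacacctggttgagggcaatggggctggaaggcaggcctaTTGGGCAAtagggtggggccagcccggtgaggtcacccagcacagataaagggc
Fcnb: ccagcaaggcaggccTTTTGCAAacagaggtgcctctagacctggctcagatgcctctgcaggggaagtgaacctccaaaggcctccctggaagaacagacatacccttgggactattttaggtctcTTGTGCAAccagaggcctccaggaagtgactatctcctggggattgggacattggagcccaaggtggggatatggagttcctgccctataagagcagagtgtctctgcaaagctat

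These windows lie at chr9:110419558-110419746, plus strand for Ngp, at chr9:111019042-111019270, plus strand for Ltf and at chr2:28084886-28085128, minus strand for Fcnb. The AP-1 letters TGANTCA lay in 7.87% of the windows of higher genes, 4.17% of lower genes and 4.63% of tested genes, and the TATA letters TATAAA in 12.9, 6.25 and 6.77%. The E2F letters TTTNNCGC lay in 3.93, 7.64 and 7.17%, the interferon response letters (GAAA and GAAA separated by 2 bases) in 4.49, 2.08 and 2.94%, the CRE letters TGACGTCA in 2.81, 2.08 and 2.8% and the CCAAT box in 31.5, 41.7 and 36.1%. Among all 27025 windows of the table, kappa B, C/EBP, AP-1 and TATA letters lay in 1.4, 9.55, 6.87 and 13%. A match is a description of the sequence and no evidence of binding.

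**Figure D3:**
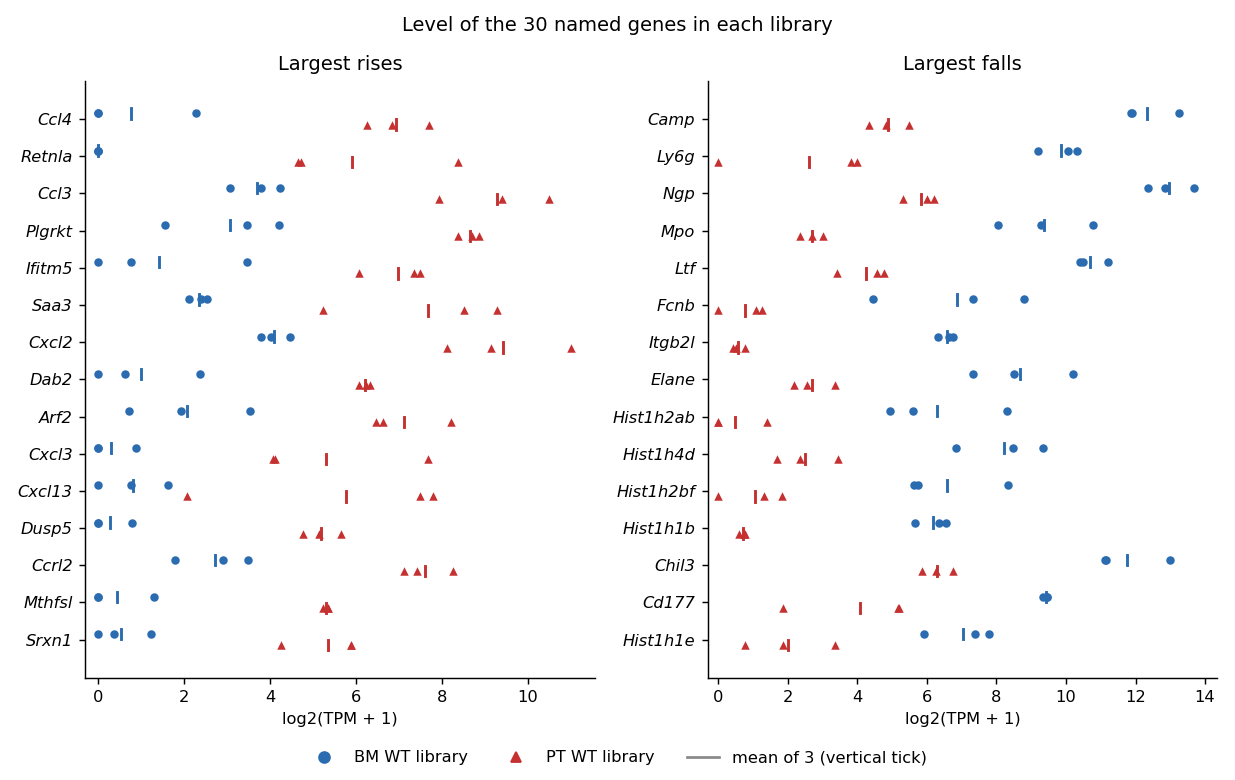
Level of 30 protein-coding genes in each library as log2(TPM + 1), with BM WT libraries as blue circles, PT WT libraries as red triangles and the mean of 3 as a vertical tick. The genes were chosen among called genes whose groups do not overlap, so the lack of overlap is a condition of the choice. The left panel holds the 15 with the largest rise and the right panel the 15 with the largest fall.

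Several chemokines that attract neutrophils, monocytes and lymphocytes rose. Ccl4 (chr11:83662584-83664683), which draws in monocytes and lymphocytes, was at 0, 0 and 3.84 TPM in marrow and 207, 113 and 74.9 in peritoneum. Its neighbour Ccl3 (chr11:83647844-83649355), of the same family, was at 12.7, 17.8 and 7.39 TPM in marrow and 1427, 670.3 and 244 in peritoneum. Both rose (log2 fold change 6.17, SE 0.81, adjusted p 0.00104 for Ccl4, log2 fold change 5.58, SE 0.97, adjusted p 0.00583 for Ccl3), and the lack of overlap was a condition of their choice. Cxcl2 (chr5:90903871-90905938) and Cxcl3 (chr5:90786103-90789600), whose promoter windows are printed above, draw in neutrophils through CXCR2. Cxcl2 was at 12.8, 21 and 15.2 TPM in marrow and 563, 276 and 2058 in peritoneum (log2 fold change 5.33, SE 0.81, adjusted p 0.00279). Cxcl3 was at 0.85, 0 and 0 TPM in marrow and 16.3, 15.8 and 204 in peritoneum (log2 fold change 4.99, SE 1.10, adjusted p 0.021). Library 12 was the highest of PT WT for both. Cxcl13, which draws in B cells, was at 0.696, 0 and 2.09 TPM in marrow and 179, 219 and 3.15 in peritoneum (log2 fold change 4.98, SE 1.22, adjusted p 0.0338). Ccl2, which draws in monocytes, was at 4.63, 3.99 and 0.566 TPM in marrow and 189, 190.3 and 7.46 in peritoneum (log2 fold change 4.26, SE 1.11, adjusted p 0.0438). For these last genes library 12 was the lowest of PT WT and lay close to BM WT. Cxcl1 was listed at 0 in BM WT and at 5.12, 2.9 and 38.6 TPM in PT WT (adjusted p 0.0439).

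Of the 9 CC chemokines tested, of 13 listed, 3 were higher and none lower, with a median log2 fold change of 2.84, and of the 9 CXC chemokines, of 13 listed, 4 were higher, with a median of 3.29. The same median over all tested genes was 0.25. Each list count here and below stands against 2.32% of all tested genes higher and 1.67% lower. Ccl17 reached 204 and 35.8 TPM in libraries 10 and 11 but was listed at 0 in library 12, and it was not called (adjusted p 0.212). Ccl4, Ccl3 and Cxcl2 kept the call whichever library was left out. Cxcl3 lost the call with library 4, 5, 6 or 12 left out (adjusted p up to 0.0841). Cxcl13 and Ccl2 lost the call with library 4, 5, 6, 10 or 11 left out (adjusted p up to 0.154 and 0.181, in that order). Cxcl1 lost the call with library 4, 5, 6, 10 or 12 left out (adjusted p up to 0.144). The CC list held 2 higher and 0 lower calls without library 4, and 5 and 0 without library 12. The CXC list held 1 higher and 0 lower calls without library 4, and 2 and 0 without library 12.

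The 15 largest rises included genes of other processes. Retnla, a secreted resistin-like protein of alternatively activated macrophages, was listed at 0 in BM WT and at 25.5, 23.9 and 329.9 TPM in PT WT (adjusted p 0.00811), with library 12 the highest. Plgrkt, a plasminogen receptor, was at 17.3, 9.98 and 1.91 TPM in marrow and 461, 416 and 329 in peritoneum (log2 fold change 5.57, SE 0.71, adjusted p 0.000902). Dab2, an endocytic adaptor, was at 4.12, 0 and 0.546 TPM in marrow and 79, 73.7 and 66.3 in peritoneum (log2 fold change 5.21, SE 0.99, adjusted p 0.00969). The 3 PT WT libraries were close to each other for Plgrkt and for Dab2. The small GTPase Arf2 was at 10.5, 2.77 and 0.652 TPM in marrow and 296, 87.9 and 97.6 in peritoneum (log2 fold change 5.05, SE 0.84, adjusted p 0.00476). Ifitm5, a member of the interferon-induced transmembrane family, was at 10.1, 0 and 0.692 TPM in marrow and 161, 66 and 179 in peritoneum (log2 fold change 5.56, SE 0.87, adjusted p 0.00316). A lack of overlap was a condition of the choice of these 15, so it adds no support. Mthfsl, a relative of a folate enzyme, was at 1.44, 0 and 0 TPM in marrow and 36.4, 39.5 and 39.4 in peritoneum (log2 fold change 4.87, SE 0.73, adjusted p 0.00256), with 3 nearly equal PT WT libraries. Saa3, an acute phase serum amyloid, was at 4.8, 4.24 and 3.29 TPM in marrow and 361, 622 and 36.8 in peritoneum (log2 fold change 5.33, SE 1.30, adjusted p 0.0324), again with library 12 the lowest of PT WT. Retnla, Plgrkt, Dab2, Arf2, Ifitm5 and Mthfsl kept the call whichever library was left out. Saa3 lost the call with library 4, 5, 6, 10 or 11 left out (adjusted p up to 0.129).

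Receptors for chemoattractants and cytokines were counted against 2.32% of all tested genes higher and 1.67% lower. Of 18 chemoattractant receptors tested, 3 were higher and none lower (median 1.01). Ccrl2, which presents chemerin, was at 6.47, 10.1 and 2.44 TPM in marrow and 303, 169.9 and 138 in peritoneum (log2 fold change 4.88, SE 0.60, adjusted p 0.000711). Ptafr, the receptor for platelet-activating factor, was at 26.8, 61.4 and 53.2 TPM in marrow and 328, 229 and 484 in peritoneum (log2 fold change 2.87, SE 0.55, adjusted p 0.01). Hcar2, a receptor for nicotinic acid, was at 4.48, 27.4 and 5.54 TPM in marrow and 175, 216 and 115 in peritoneum (log2 fold change 4.03, SE 0.81, adjusted p 0.0126). All 3 were apart between the groups, as were all 268 higher genes. Cxcr2 was at 253, 1864 and 1729.5 TPM in marrow and 1333, 1718 and 2236 in peritoneum, with library 4 the lowest, and was not called (adjusted p 0.616). Of 24 cytokine receptors, 2 were higher and none lower (median 1.23). Il1rap, the shared chain of receptors of the interleukin-1 family, was at 8.42, 41.5 and 16.5 TPM in marrow and 143, 142 and 196 in peritoneum (log2 fold change 3.06, SE 0.60, adjusted p 0.0112). Il1rl1, the receptor for interleukin-33, was at 0.663, 1.16 and 0.933 TPM in marrow and 41.8, 12.2 and 51 in peritoneum (log2 fold change 4.01, SE 0.87, adjusted p 0.02). Ccrl2 kept the call whichever library was left out. Ptafr and Il1rap lost the call with library 4 left out (adjusted p up to 0.0517 and 0.0559, in that order). Hcar2 lost the call with library 4, 6, 10 or 11 left out (adjusted p up to 0.0607). Il1rl1 lost the call with library 4, 6, 10 or 12 left out (adjusted p up to 0.0813).

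Among 13 cytokines and growth factors tested, of 24 listed, 3 were higher and none lower (median 1.17). Csf1, the growth factor of macrophages, with a kappa B match in its window, was at 14.1, 18.5 and 29.2 TPM in marrow and 667, 434 and 489 in peritoneum (log2 fold change 4.66, SE 0.60, adjusted p 0.000962). Il1b was at 64.3, 326 and 277 TPM in marrow and 1783, 1611 and 7334 in peritoneum (log2 fold change 3.93, SE 0.85, adjusted p 0.02). Il1rn, which encodes the antagonist of the same receptor, was at 137, 498 and 373 TPM in marrow and 4002, 3084 and 4055 in peritoneum (log2 fold change 3.64, SE 0.59, adjusted p 0.00419). For both, library 4 was the lowest of BM WT, and Il1b in library 12 was more than the sum of libraries 10 and 11. Csf1 and Il1rn kept the call whichever library was left out. Il1b lost the call with library 4, 10 or 12 left out (adjusted p up to 0.0852).

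Several genes known to answer a signal first rose. Of 22 AP-1 and immediate early genes tested, 10 were higher and none lower, with a median of 2.69 against 0.25 over all tested genes. Atf3 was at 1.1, 1.28 and 0.561 TPM in marrow and 112, 62.3 and 15.2 in peritoneum (log2 fold change 4.64, SE 0.79, adjusted p 0.00505). Egr1 was at 4.3, 6.72 and 8.64 TPM in marrow and 55.4, 31.3 and 1231 in peritoneum (log2 fold change 4.16, SE 1.12, adjusted p 0.0499). Both encode transcription factors, and library 12 was far above libraries 10 and 11 for Egr1 but below them for Atf3. The orphan nuclear receptor Nr4a3 was at 0.875, 0.299 and 0.716 TPM in marrow and 26.5, 19.3 and 20.5 in peritoneum (log2 fold change 3.83, SE 0.68, adjusted p 0.00701). Fosb, an AP-1 subunit, was at 0.36, 0 and 0 TPM in marrow and 8.47, 6.3 and 13 in peritoneum (log2 fold change 3.16, SE 0.74, adjusted p 0.0272). For these genes the 3 PT WT libraries were closer together. Jun, Junb, Jund, Ier3, Ier5 and Zfp36, an RNA-binding protein that shortens the life of cytokine messengers, were the other 6, with log2 fold changes of 2.86, 2.79, 2.76, 2.93, 2.85 and 2.26. The list held 2 higher and 0 lower calls without library 4, and 3 and 0 without library 12. It held 4 higher calls with centring and 14 with the genes of long A or T runs left out. Atf3 and Nr4a3 kept the call whichever library was left out. Egr1 lost the call with library 4, 5, 6, 10 or 12 left out (adjusted p up to 0.168). Fosb and Jund lost the call whichever library was left out (adjusted p up to 0.0841 and 0.175, in that order). Jun lost the call with library 4, 10 or 11 left out (adjusted p up to 0.134). Junb, Ier3 and Zfp36 lost the call with library 4, 5, 10, 11 or 12 left out (adjusted p up to 0.17, 0.167 and 0.178, in that order). Ier5 lost the call with library 4, 6, 10, 11 or 12 left out (adjusted p up to 0.0744).

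Of 9 MAP kinase phosphatases tested, which switch off the kinases upstream of AP-1, 2 were higher and none lower (median 1.72). Dusp1 was at 68.8, 501 and 259.6 TPM in marrow and 3636, 1812 and 3147 in peritoneum (log2 fold change 3.72, SE 0.77, adjusted p 0.0151). Dusp5 was at 0, 0 and 0.731 TPM in marrow and 34.4, 26.2 and 49.1 in peritoneum (log2 fold change 4.92, SE 0.83, adjusted p 0.0049). Of 19 NF-kB subunits and feedback inhibitors, 2 were higher and none lower (median 1.79). Both are inhibitors of the pathway and hold a kappa B match in their windows. Nfkbia was at 42.2, 77.9 and 11.9 TPM in marrow and 245, 127 and 358 in peritoneum (log2 fold change 2.67, SE 0.68, adjusted p 0.0402). Tnfaip3 (A20) was at 8.25, 8.06 and 7.35 TPM in marrow and 71.8, 43.6 and 164 in peritoneum (log2 fold change 3.19, SE 0.63, adjusted p 0.0112). The list held 1 higher and 0 lower calls without library 4, and 1 and 0 without library 12. Quantile normalization gave 4 higher calls and leaving out the genes of long A or T runs 8. The subunits Rel, Relb and Nfkb2 had log2 fold changes of 1.83, 2.25 and 2.11 and were not called, nor were Nfkb1 (-0.26) and Rela (0.70). Dusp5 and Tnfaip3 kept the call whichever library was left out. Dusp1 lost the call with library 4, 10 or 12 left out (adjusted p up to 0.0674). Nfkbia lost the call with library 4, 6, 10, 11 or 12 left out (adjusted p up to 0.154).

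Of 28 pattern recognition genes tested, 4 were higher and none lower (median 1.49). Clec4n (dectin-2), a receptor for fungal mannans, was at 18, 24.9 and 6.64 TPM in marrow and 299, 199 and 392 in peritoneum (log2 fold change 4.20, SE 0.75, adjusted p 0.00701). Irak2, a kinase of Toll-like receptor signalling, was at 4.73, 7.34 and 26.4 TPM in marrow and 185, 148 and 203 in peritoneum (log2 fold change 4.02, SE 0.74, adjusted p 0.00811). The 3 PT WT libraries were of one order for both. The inflammasome sensor Nlrp3 was at 2.73, 29.9 and 5.4 TPM in marrow and 81, 78.1 and 384 in peritoneum (log2 fold change 3.91, SE 0.88, adjusted p 0.0238). The lipopolysaccharide co-receptor Cd14 was at 31.3, 166 and 256 TPM in marrow and 644, 527 and 2245 in peritoneum (log2 fold change 3.04, SE 0.81, adjusted p 0.0474). Library 12 was the highest for Nlrp3 and Cd14. As in all 268 higher genes, the groups did not overlap in any of the 4 genes. The list held 2 higher and 0 lower calls without library 4, and 2 and 0 without library 12. The list median was 0.91 without library 4, and 11 members were higher with the genes of long A or T runs left out. Of 20 adhesion genes 2 were higher and none lower (median 1.06), where 2.32% of all tested genes were higher. Icam1, a ligand of neutrophil integrins, was at 6.62, 1.93 and 0.426 TPM in marrow and 71.1, 47.2 and 67.3 in peritoneum (log2 fold change 4.29, SE 0.84, adjusted p 0.0111), and the integrin Itgax (CD11c) at 4.6, 9.26 and 1.12 TPM in marrow and 28.1, 40.1 and 313 in peritoneum (log2 fold change 3.86, SE 0.98, adjusted p 0.0384), with library 12 the highest for Itgax. Clec4n and Irak2 kept the call whichever library was left out. Nlrp3 lost the call with library 4, 6, 10 or 12 left out (adjusted p up to 0.0999). Cd14 lost the call with library 4, 5, 10, 11 or 12 left out (adjusted p up to 0.181). Icam1 lost the call with library 10 left out (adjusted p up to 0.0572). Itgax lost the call with library 4, 6, 10, 11 or 12 left out (adjusted p up to 0.161).

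Of 25 interferon-stimulated genes tested, 4 were higher and none lower (median 1.37). Rsad2 (viperin) was at 2.27, 7.17 and 2.77 TPM in marrow and 67, 110.5 and 24.2 in peritoneum (log2 fold change 3.63, SE 0.70, adjusted p 0.0101). Oasl2, an antiviral protein, was at 11.9, 111 and 49 TPM in marrow and 544, 580.4 and 172 in peritoneum (log2 fold change 3.19, SE 0.72, adjusted p 0.024). Both were highest in library 11. The ubiquitin-like Isg15 was at 0, 18.2 and 4.4 TPM in marrow and 31.2, 69.1 and 177 in peritoneum (log2 fold change 3.97, SE 1.00, adjusted p 0.0378). The GTPase Gbp2 was at 2.23, 10.2 and 1.6 TPM in marrow and 76.5, 96.3 and 16.9 in peritoneum (log2 fold change 3.50, SE 0.87, adjusted p 0.0366). Library 12 was the lowest of PT WT for Rsad2, Oasl2 and Gbp2 and the highest for Isg15. Of 7 genes of STAT3 signalling tested, 1 was higher and none lower (median 1.99). It was the kinase Jak2, at 21, 28.7 and 4.37 TPM in marrow and 78.7, 73.1 and 115 in peritoneum (log2 fold change 2.54, SE 0.64, adjusted p 0.038). Stat3 (0.59), Jak1 (0.88) and Bcl3 (2.25) were not called. The interferon list held 1 higher and 0 lower calls without library 4, and 3 and 0 without library 12. With centring, it held 1 higher call. Rsad2 lost the call with library 10 or 11 left out (adjusted p up to 0.0585). Oasl2 and Gbp2 lost the call with library 4, 6, 10 or 11 left out (adjusted p up to 0.102 and 0.141, in that order). Isg15 and Jak2 lost the call with library 4, 6, 10, 11 or 12 left out (adjusted p up to 0.153 and 0.131, in that order).

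Nearly all secondary granule genes fell. Of 13 tested, 12 were lower and none higher, with a median log2 fold change of -5.35, and 10 to 13 were lower under the 4 other scalings, the 6 WT libraries alone, and the fits without library 4 or library 12. Camp (chr9:109847379-109849617), which encodes cathelicidin, was at 9783, 3723 and 3844 TPM in marrow and 27.5, 43.5 and 19.3 in peritoneum (log2 fold change -7.46, SE 0.55, adjusted p 8.1e-06). Ngp (chr9:110419747-110423012), neutrophilic granule protein, was at 13052, 5299.9 and 7373 TPM in marrow and 62.7, 72.7 and 38.4 in peritoneum (log2 fold change -7.13, SE 0.62, adjusted p 3.5e-05). Ltf (chr9:111019271-111042767), lactoferrin, on the same chromosome, was at 2378, 1430.1 and 1344 TPM in marrow and 26.3, 22.6 and 9.57 in peritoneum (log2 fold change -6.45, SE 0.70, adjusted p 0.000304). In each of these 3 genes library 4 was the highest of BM WT and library 12 the lowest of PT WT, and the lowest BM WT value exceeded the highest PT WT value many times over. The windows of Ngp and Ltf are among those printed above. The lectin Fcnb was at 446, 20.7 and 160.3 TPM in marrow and 1.39, 1.1 and 0 in peritoneum (log2 fold change -6.08, SE 1.15, adjusted p 0.00945). The integrin chain Itgb2l was at 98.7, 107 and 79.1 TPM in marrow and 0.327, 0.431 and 0.691 in peritoneum (log2 fold change -6.01, SE 0.69, adjusted p 0.000473). For both of these, no peritoneal library passed 1.39 TPM. The chitinase-like Chil3 was at 8189.9, 2241 and 2293 TPM in marrow and 107, 75.5 and 57 in peritoneum (log2 fold change -5.47, SE 0.59, adjusted p 0.000304). Cd177, a neutrophil surface antigen, was at 704, 705 and 642 TPM in marrow and 34.7, 35.6 and 2.62 in peritoneum (log2 fold change -5.35, SE 0.86, adjusted p 0.0041).

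Lcn2 (lipocalin 2, which binds siderophores) was at 11337, 12509 and 13646 TPM in marrow and 501, 456 and 267 in peritoneum (log2 fold change -4.98, SE 0.60, adjusted p 0.000711). Lysozyme (Lyz2) had a log2 fold change of -3.02, the peptidoglycan-binding Pglyrp1 of -2.83, haptoglobin (Hp) of -2.22 and Mmp8 of -4.15. Olfm4 was the 1 member not called (-2.33, adjusted p 0.113). Camp, Ngp, Ltf, Itgb2l, Chil3, Cd177, Lcn2 and Pglyrp1 kept the call whichever library was left out. Fcnb lost the call with library 4 left out (adjusted p up to 0.0522). Lyz2 lost the call with library 10 left out (adjusted p up to 0.0633). Hp lost the call whichever library was left out (adjusted p up to 0.111). Mmp8 lost the call with library 5, 6, 10 or 11 left out (adjusted p up to 0.158).

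Of 9 primary granule genes tested, 4 were lower and 1 higher (median -4.25). Mpo (chr11:87793581-87804413), myeloperoxidase, was at 1743, 263 and 622 TPM in marrow and 5.42, 7.1 and 4.06 in peritoneum (log2 fold change -6.69, SE 0.69, adjusted p 0.000231). Elane (chr10:79886247-79888215), neutrophil elastase, was at 1171, 159 and 363 TPM in marrow and 9.21, 3.55 and 4.82 in peritoneum (log2 fold change -5.98, SE 0.79, adjusted p 0.00107). Library 4 was the highest of BM WT for both, and both were chosen among genes whose groups did not overlap. The protease Ctsg (cathepsin G) and the membrane protein Ms4a3 had log2 fold changes of -4.25 and -4.62. The member that was higher was Srgn, serglycin, the proteoglycan core that packs granule proteins, at 275, 1225 and 1244 TPM in marrow and 5697, 4995 and 8986 in peritoneum (log2 fold change 3.08, SE 0.58, adjusted p 0.00907). Mpo, Elane and Srgn kept the call whichever library was left out. Ctsg and Ms4a3 lost the call with library 4, 10 or 11 left out (adjusted p up to 0.0645 and 0.0838, in that order). The list held 1 higher and 2 lower calls without library 4, and 1 and 4 without library 12.

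The tertiary granule and secretory vesicle genes, which are made last, were counted in the same way. Of 11 tested, 2 were higher (Cd14 and Itgax, above) and none lower, with a median of 0.73. Of all tested genes only 1.67% were lower, so the absence of a lower call among 11 is no result about these genes. Gelatinase, Mmp9, was at 139, 662 and 497 TPM in marrow and 112, 112 and 256 in peritoneum. The formyl peptide receptor Fpr1 was at 67.8, 416 and 259 TPM in marrow and 39.7, 35.5 and 526 in peritoneum, where library 12 was far above libraries 10 and 11. Neither was called (adjusted p 0.383 and 0.661). Of 17 transcription factors of granulopoiesis, 2 were higher and none lower (median 0.64). The zinc finger factor Klf6 was at 77.7, 162 and 104 TPM in marrow and 457, 404 and 415 in peritoneum (log2 fold change 1.95, SE 0.46, adjusted p 0.0277). The retinoic acid receptor Rara was at 15.8, 36.9 and 44.5 TPM in marrow and 233, 192 and 74.2 in peritoneum (log2 fold change 2.29, SE 0.61, adjusted p 0.0485). Cebpe, a factor known to drive secondary granule genes, was at 73.9, 3.4 and 22.2 TPM in marrow and 4.14, 11.6 and 0 in peritoneum (log2 fold change -2.29, SE 1.05, adjusted p 0.268). Gfi1 was at 30, 6.33 and 1.77 TPM in marrow and 1.06, 1.68 and 0.403 in peritoneum, and neither was called. Cebpb was at 12.7, 40 and 37.1 TPM in marrow and 128, 59.1 and 201 in peritoneum, apart between the groups but not called (adjusted p 0.0701). Klf6 lost the call with library 4, 6, 10, 11 or 12 left out (adjusted p up to 0.105). Rara lost the call with library 4, 5, 6, 10 or 11 left out (adjusted p up to 0.188).

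Ly6g (chr15:75155240-75159126), which encodes an antigen that antibodies to Gr1 bind, had the second largest fall. It was at 588, 1058 and 1266 TPM in marrow and 13.1, 14.9 and 0 in peritoneum (log2 fold change -7.25, SE 1.07, adjusted p 0.00243), and kept the call whichever library was left out. Library 12, which held it at 0, had S100a8 at 27252 and Csf3r at 2048 TPM.

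Several genes of cell division fell. Of 23 tested, of 24 listed, 9 were lower and none higher (median -3.03), where 1.67% of all tested genes were lower. In 17 of the 23, all 3 PT WT values lay below all 3 BM WT values, as in 8.73% of all tested genes. Ube2c, which drives exit from mitosis, was at 211, 85.1 and 109 TPM in marrow and 5.55, 3.74 and 3.63 in peritoneum (log2 fold change -4.59, SE 0.70, adjusted p 0.00299). Stmn1, a microtubule regulator, was at 64.3, 15.8 and 21 TPM in marrow and 0, 0.912 and 0 in peritoneum (log2 fold change -4.54, SE 0.77, adjusted p 0.00505). In both, every PT WT library was below BM WT, as for 192 of the 193 lower genes. Stmn1 reached 1 TPM in BM WT alone, so its separation adds no support. Rrm2, a subunit of ribonucleotide reductase, was at 84.8, 24.7 and 17 TPM in marrow and 0.392, 3.02 and 0.168 in peritoneum (log2 fold change -4.19, SE 0.84, adjusted p 0.0126). The cyclin Ccnb1 was at 59.2, 8.19 and 35.3 TPM in marrow and 0.601, 0 and 1.47 in peritoneum (log2 fold change -4.10, SE 0.85, adjusted p 0.0152). Plk1, a mitotic kinase, was at 20.7, 11.9 and 8.15 TPM in marrow and listed at 0 in peritoneum (adjusted p 0.00649). Library 4 was the highest of BM WT in each of these 5 genes. The list held 0 higher and 3 lower calls without library 4, and 0 and 5 without library 12. With centring, 13 were lower. Mki67, Mcm2, Mcm5 and Mcm6 were the other 4 (log2 fold changes -3.05, -3.05, -3.62 and -3.40). Ube2c, Stmn1 and Plk1 kept the call whichever library was left out. Rrm2 lost the call with library 4 or 10 left out (adjusted p up to 0.0646). Ccnb1 lost the call with library 4, 6, 10 or 11 left out (adjusted p up to 0.0689). Mki67, Mcm2 and Mcm5 lost the call with library 4, 6, 10, 11 or 12 left out (adjusted p up to 0.0966, 0.151 and 0.0765, in that order). Mcm6 lost the call with library 4, 5, 6, 10 or 12 left out (adjusted p up to 0.148).

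Several histone genes of the large cluster on chromosome 13 fell. Of 22 tested genes named Hist1, a group formed after their values were seen, 9 were lower and none higher, with a median of -2.93. Of these, 5 were among the 15 largest falls of all protein-coding genes. Hist1h2ab (chr13:23751126-23751598) was at 312, 29.7 and 47.5 TPM in marrow and 1.63, 0 and 0 in peritoneum (log2 fold change -5.81, SE 0.84, adjusted p 0.00217). The linker histone Hist1h1b (chr13:21779883-21780625) was at 91.8, 49 and 81.1 TPM in marrow and 0.525, 0.696 and 0.655 in peritoneum (log2 fold change -5.48, SE 0.77, adjusted p 0.00176). Hist1h4d, Hist1h2bf and Hist1h1e had log2 fold changes of -5.72, -5.52 and -5.04. Near-identical copies of these genes can share reads, so a value of a single histone gene is uncertain. Hist1h2ab, Hist1h1b, Hist1h4d, Hist1h2bf and Hist1h1e kept the call whichever library was left out.

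**Figure D4:**
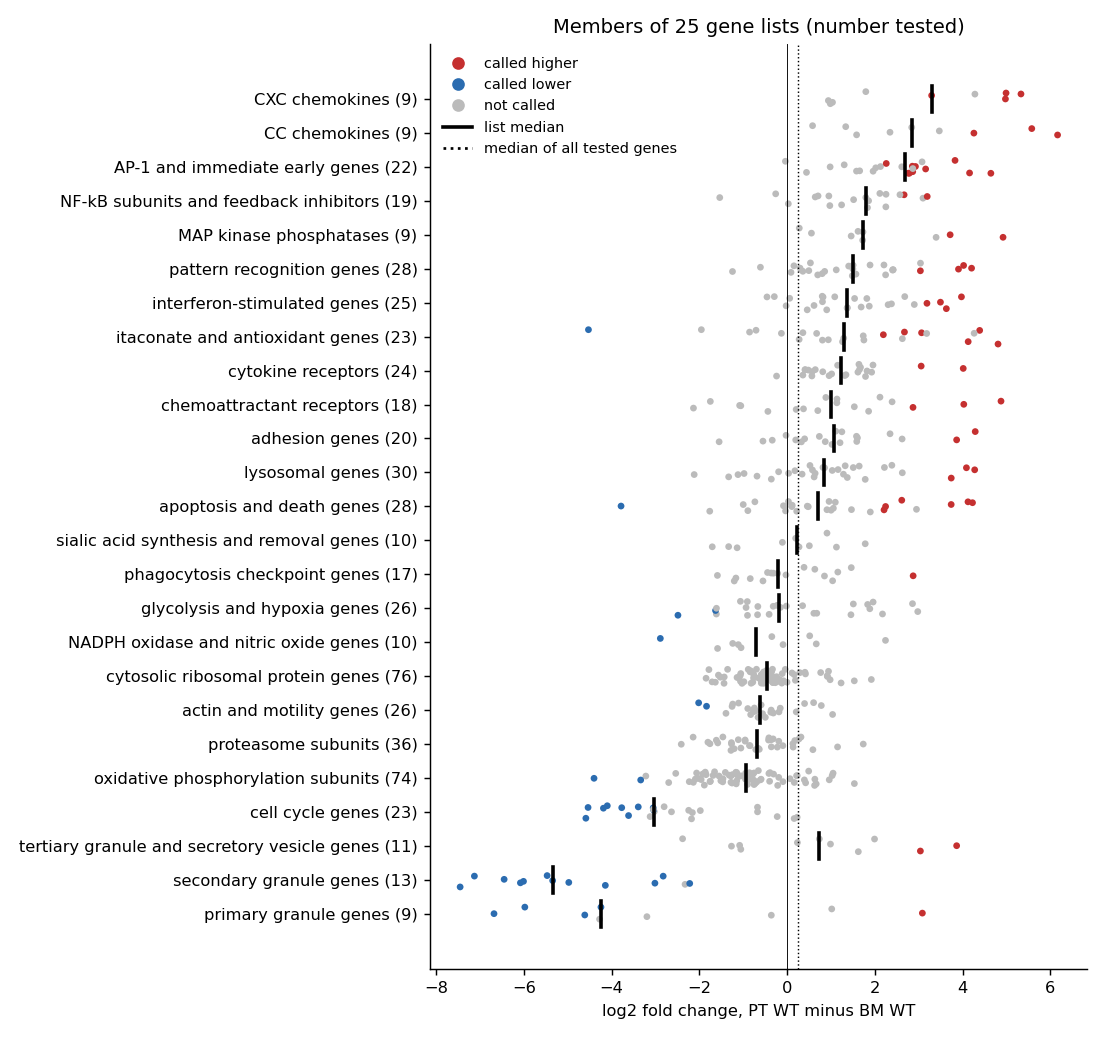
Each point is a tested member of 1 of 25 gene lists, placed by its log2 fold change, PT WT minus BM WT, with red for called higher, blue for called lower and grey for not called. Black ticks are the list medians and the dotted line the median of all tested genes (0.25), and the secondary granule list has the lowest median (-5.35) and the CXC chemokines the highest (3.29).

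The programmes that set the fate of a neutrophil were examined next. Of 28 apoptosis and death genes tested, of 38 listed, 6 were higher and 1 lower (median 0.69). Mcl1, the survival protein on which neutrophils depend, was at 173, 468 and 419 TPM in marrow and 1564, 1347 and 1601 in peritoneum (log2 fold change 2.21, SE 0.46, adjusted p 0.0154). Birc3, an inhibitor of apoptosis, was at 79, 208 and 99 TPM in marrow and 697, 619 and 884 in peritoneum (log2 fold change 2.61, SE 0.49, adjusted p 0.00959). Bcl2l11 (Bim) and Pmaip1 (Noxa) encode proteins that oppose Mcl1. Bcl2l11 was at 9.04, 12.5 and 1.47 TPM in marrow and 135, 89.5 and 178 in peritoneum (log2 fold change 4.23, SE 0.67, adjusted p 0.00372). Pmaip1 was at 3.95, 2.76 and 2.34 TPM in marrow and 59, 42.2 and 56.3 in peritoneum (log2 fold change 3.74, SE 0.71, adjusted p 0.00945). These 4 genes were apart between the groups, as were all 268 higher genes. Genes that favour survival and genes that favour death were thus both called higher.

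Bcl2a1b, a survival gene with near-identical copies, was at 8.85, 0 and 15.2 TPM in marrow and 61, 47.9 and 277 in peritoneum (log2 fold change 4.12, SE 1.02, adjusted p 0.0344). Casp4, the caspase that senses lipopolysaccharide in the cytosol, was at 79.5, 139 and 51.8 TPM in marrow and 590.0, 396 and 269 in peritoneum (log2 fold change 2.24, SE 0.50, adjusted p 0.0235). The death receptor Fas was at 3.75, 9.01 and 17.3 TPM in marrow and 45.5, 105 and 80.4 in peritoneum, apart between the groups but not called (adjusted p 0.078). Bcl2 itself lay between 0.219 and 2.37 TPM in all 6 libraries (log2 fold change 0.11, SE 1.12). This SE draws on all 12 libraries, among them PT Bcl2 at 82.8, 58.6 and 0.695 TPM. It does not measure the spread of the 6 WT libraries. The list held 3 higher and 1 lower calls without library 4, and 5 and 1 without library 12. Birc3 and Bcl2l11 kept the call whichever library was left out. Mcl1 lost the call with library 4 or 10 left out (adjusted p up to 0.0668). Pmaip1 lost the call with library 10 left out (adjusted p up to 0.0516). Bcl2a1b lost the call with library 4, 5, 10, 11 or 12 left out (adjusted p up to 0.147). Casp4 lost the call with library 4, 6, 10 or 11 left out (adjusted p up to 0.108).

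The study asked how macrophages recognise living neutrophils, and genes named in that recognition were examined. It measured calreticulin and its binding sites on the cell surface, and reports that the calreticulin on neutrophils is secreted by macrophages. In its account the receptors CD91 (Lrp1) and SIRPa act on the macrophage. The values below are RNA of the neutrophil alone, so they do not measure that recognition. Calr, which encodes calreticulin, a signal for uptake, was at 77.4, 30.5 and 48.1 TPM in marrow and 55.5, 58.1 and 79.6 in peritoneum (log2 fold change 0.38, 95% interval -0.85 to 1.62, adjusted p 0.783), and the groups overlapped. Cd47, the signal against uptake, was at 306, 243 and 477 TPM in marrow and 90.4, 110.4 and 127 in peritoneum, with every PT WT library below every BM WT library, yet it was not called (log2 fold change -1.59, SE 0.60, adjusted p 0.162, 95% interval -2.87 to -0.31). Lrp1, the receptor for calreticulin, was at 7.42, 13.9 and 1.73 TPM in marrow and 6.53, 10.2 and 2.83 in peritoneum (log2 fold change -0.03, SE 0.79, adjusted p 0.991). Sirpa, the receptor for CD47, was at 150.2, 135 and 129 TPM in marrow and 93.2, 99.7 and 146 in peritoneum (log2 fold change -0.31, SE 0.47, adjusted p 0.783).

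Of the 17 phagocytosis checkpoint genes tested, 1 was higher and none lower (median -0.22), where 2.32% of all tested genes were higher. It was Cd300a, a receptor for the phosphatidylserine and phosphatidylethanolamine of dying cells, at 20.2, 30.5 and 27 TPM in marrow and 200.4, 159.7 and 226 in peritoneum (log2 fold change 2.87, SE 0.57, adjusted p 0.0117). B2m, the light chain of MHC class I, was at 1959, 1983 and 1503 TPM in marrow and 4529, 3524 and 4038 in peritoneum, apart but not called (adjusted p 0.122), and Cd24a and Pilra had log2 fold changes of -0.55 and -0.22. The median of the list was 0.33 with the genes of long A or T runs left out, so its direction depended on the scaling. With S100a8 and S100a9 left out as well, this median was -0.21. Cd300a lost the call with library 4 or 10 left out (adjusted p up to 0.0576).

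Of the 4 neuraminidases, which take sialic acid off the cell surface, Neu1 was at 16.3, 6.45 and 2.63 TPM in marrow and 3.91, 8.74 and 27.1 in peritoneum (log2 fold change 0.51, SE 0.83, adjusted p 0.802). Neu3 was at 0.853, 2.52 and 2.15 TPM in marrow and 2.23, 2.74 and 10.2 in peritoneum (log2 fold change 0.91, SE 0.72, adjusted p 0.557), with overlapping groups in both. Neu2 was listed at 0 in all 6 libraries, and Neu4 at 0 in 4 of them and at no more than 0.148 TPM in the others, so neither was tested. None of 10 tested genes of sialic acid synthesis and removal was called (median 0.23, or -0.29 without library 12). Ctsa, the carboxypeptidase that stabilises Neu1, was at 30.8, 36.5 and 5.48 TPM in marrow and 96.8, 60 and 51.5 in peritoneum (adjusted p 0.312), and the other members with the highest levels, Npl and Cmas, had log2 fold changes of -1.71 and 0.27. Among 11 sialyltransferases tested, of 20 listed, which add sialic acid, St3gal6 was higher, at 1.9, 72.3 and 50.8 TPM in marrow and 269.6, 244 and 704 in peritoneum (log2 fold change 4.02, SE 0.98, adjusted p 0.0321), and none was lower (median 0.98). St3gal1 was at 31.7, 19.5 and 21.7 TPM in marrow and 80.5, 49.6 and 66.9 in peritoneum. St3gal5 was at 224, 119 and 59.8 TPM in marrow and 66.9, 43.6 and 154 in peritoneum, neither of them called. St3gal6 lost the call with library 4, 10, 11 or 12 left out (adjusted p up to 0.127).

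**Figure D5:**
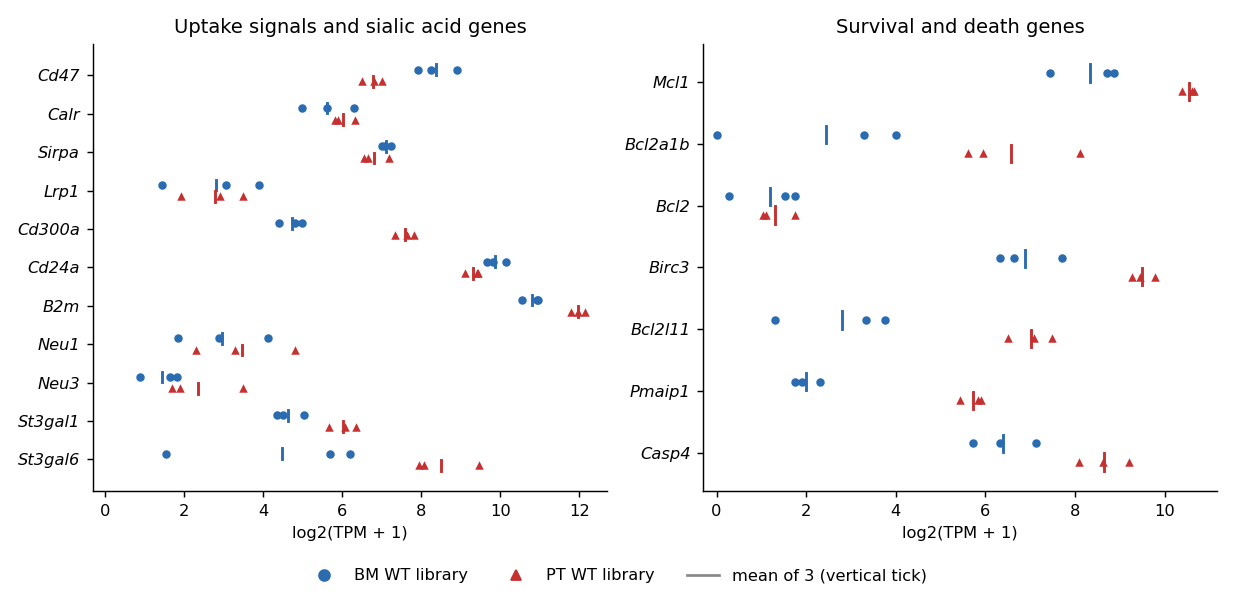
Level of 18 genes in each library as log2(TPM + 1), with BM WT libraries as blue circles, PT WT libraries as red triangles and the mean of 3 as a vertical tick. The groups overlap for Calr, Sirpa, Lrp1, Neu1, Neu3 and Bcl2, Cd47 is lower in every PT WT library without being called, and Mcl1, Birc3, Bcl2l11 and Pmaip1 are apart and called higher.

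Several genes that protect against oxidants rose. Of 23 itaconate and antioxidant genes tested, 6 were higher and 1 lower (median 1.29). Acod1, which makes itaconate, was at 2.39, 6.04 and 15.1 TPM in marrow and 118, 75.1 and 389 in peritoneum (log2 fold change 4.39, SE 0.82, adjusted p 0.00899). The cystine carrier Slc7a11 was at 7.35, 18.3 and 22.2 TPM in marrow and 236, 174 and 479 in peritoneum (log2 fold change 4.13, SE 0.67, adjusted p 0.00419). Sulfiredoxin, Srxn1, was at 1.35, 0 and 0.279 TPM in marrow and 58.2, 18.1 and 57.6 in peritoneum (log2 fold change 4.81, SE 0.82, adjusted p 0.00531). In each of these the groups did not overlap, as in all 268 higher genes. The transcription factor Nfe2l2 (NRF2), which is known to drive Slc7a11, Srxn1 and Nqo1, was at 151, 163 and 148 TPM in marrow and 743, 469 and 1012 in peritoneum (log2 fold change 2.19, SE 0.53, adjusted p 0.0318). Nqo1 was at 0, 0 and 1.49 TPM in marrow and 31.5, 8.52 and 3.71 in peritoneum (log2 fold change 3.06, SE 0.80, adjusted p 0.045). The iron store Fth1 reached 7683, 5496 and 6289 TPM in PT WT against 492, 1528 and 1353 in BM WT (log2 fold change 2.67, SE 0.57, adjusted p 0.0184). Peroxiredoxin 5, Prdx5, was the lower gene, at 274, 170.0 and 389 TPM in marrow and 7.56, 18.9 and 7.68 in peritoneum (log2 fold change -4.53, SE 0.60, adjusted p 0.00107). The list held 4 higher and 1 lower calls without library 4, and 5 and 1 without library 12. Acod1, Slc7a11, Srxn1 and Prdx5 kept the call whichever library was left out. Nfe2l2 lost the call whichever library was left out (adjusted p up to 0.111). Nqo1 lost the call with library 4, 5, 6, 10 or 11 left out (adjusted p up to 0.167). Fth1 lost the call with library 4, 10 or 11 left out (adjusted p up to 0.0765).

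The oxidase genes were counted against 2.32% of all tested genes higher and 1.67% lower. Of 10 genes of the NADPH oxidase and of nitric oxide metabolism tested, 1 was lower and none higher (median -0.70). It was Cybb, the catalytic gp91phox subunit, at 949.9, 391 and 353 TPM in marrow and 70.7, 49.3 and 88.4 in peritoneum (log2 fold change -2.89, SE 0.62, adjusted p 0.019). Ncf1 was at 333, 372 and 397 TPM in marrow and 204, 117 and 229.7 in peritoneum. Ncf4 was at 465, 504 and 447 TPM in marrow and 351, 348 and 703 in peritoneum, neither called (adjusted p 0.263 and 0.949). With the genes of long A or T runs left out, Cybb was not called. Of the 10 genes, 5 had all PT WT values below BM WT and 1 had all above. Among all tested genes, 8.73% lay below and 16.1% above in this way. With 10 genes tested, the absence of a higher call is near the share of all genes. Of 15 eicosanoid genes, 2 were higher and 1 lower (median 0.21). Ptgs2 (cyclooxygenase 2) was at 1.78, 2.54 and 8.2 TPM in marrow and 38.4, 18.4 and 491 in peritoneum (log2 fold change 4.01, SE 1.04, adjusted p 0.0424), with library 12 far above the other PT WT libraries. Ltc4s, leukotriene C4 synthase, was listed at 0 in BM WT and at 5.87, 3.01 and 1.39 TPM in PT WT (adjusted p 0.0215). Alox5ap, the partner of the lipoxygenase that starts leukotriene synthesis, was at 539.9, 1448 and 1156 TPM in marrow and 215, 279 and 283 in peritoneum (log2 fold change -1.91, SE 0.51, adjusted p 0.0482). Cybb lost the call with library 4, 10 or 11 left out (adjusted p up to 0.083). Ptgs2 lost the call with library 4, 5, 6, 10 or 12 left out (adjusted p up to 0.158). Ltc4s lost the call with library 4, 5, 6, 10 or 11 left out (adjusted p up to 0.0787). Alox5ap lost the call with library 5, 6, 10, 11 or 12 left out (adjusted p up to 0.164).

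Housekeeping groups were counted in the same way. Of 26 genes of glycolysis and hypoxia, 2 were lower and none higher (median -0.19). Gpi1 was at 246, 207 and 363 TPM in marrow and 26.1, 39.9 and 94.1 in peritoneum (log2 fold change -2.49, SE 0.53, adjusted p 0.019). Ldha was at 354, 355 and 333 TPM in marrow and 96, 129.8 and 110.3 in peritoneum (log2 fold change -1.63, SE 0.41, adjusted p 0.0373). Of 26 actin and motility genes, profilin (Pfn1, -2.02) and coronin (Coro1a, -1.84) were lower and none was higher (median -0.63). Of 74 subunits of oxidative phosphorylation, 2 were lower, Cox4i1 (-4.40) and Uqcrc1 (-3.34), with a median of -0.95, where 1.67% of all tested genes were lower. None of 76 cytosolic ribosomal protein genes (median -0.46) or of 36 proteasome subunits (median -0.69) was called. Of 14 S100 and annexin genes 3 were lower, S100a8, S100a9 and annexin Anxa3 (-3.55), and none was higher (median -0.55). None of 13 heat shock genes (median -0.07, with Hspa8 at 0.15, Hsp90aa1 at -0.25 and Dnaja1 at 1.73) and none of 19 endoplasmic reticulum chaperone and stress genes (median 0.65, with Hspa5 at 1.37, Hsp90b1 at 0.56 and Xbp1 at 0.65) was called. The ribosomal list had a median of 0.06 and the glycolysis list of 0.35 with the genes of long A or T runs left out, so their direction depended on the scaling, and 4 glycolysis genes were then higher. With S100a8 and S100a9 left out as well, these medians were -0.46 and -0.17, and no glycolysis gene was higher. Without library 12 the glycolysis median was 0.01, and without library 4 the heat shock median was 0.19. The glycolysis list held 1 lower call without library 12 and 0 without library 4. Gpi1 lost the call with library 4, 6, 10 or 11 left out (adjusted p up to 0.0923). Ldha, Pfn1 and Coro1a lost the call whichever library was left out (adjusted p up to 0.141, 0.158 and 0.105, in that order). Anxa3 lost the call with library 4, 5, 6, 10 or 11 left out (adjusted p up to 0.106).

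Of 30 lysosomal genes tested, 3 were higher and none lower (median 0.83), where 2.32% of all tested genes were higher. Gla, alpha-galactosidase A, was at 3.47, 0.758 and 6.08 TPM in marrow and 82, 56.6 and 83.7 in peritoneum (log2 fold change 4.28, SE 0.77, adjusted p 0.00702). The acid lipase Lipa was at 3.93, 2.98 and 18.3 TPM in marrow and 214, 126 and 67.1 in peritoneum (log2 fold change 4.09, SE 0.74, adjusted p 0.00712). The groups did not overlap in either, as in all 268 higher genes. Gla kept the call whichever library was left out. Lipa lost the call with library 10 left out (adjusted p up to 0.0502).

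Markers of other cells that the gate could hold were counted in the same way, and their part in the results was not tested. Among all tested genes, 2.32% were higher and 1.67% lower. Of 13 macrophage markers none was called (median 1.32), and their summed level was 118 to 265 TPM in BM WT and 319 to 478 in PT WT. Adgre1, which encodes F4/80, was at 6.94, 4.77 and 0 TPM in marrow and 14, 11.7 and 14.7 in peritoneum (adjusted p 0.283), Csf1r, Cd68 and Lpl had log2 fold changes of 0.81, 1.32 and 0.71, and C1qa, a defining gene, was at 0 in 3 of the 6 libraries. Of 9 markers of large peritoneal macrophages 1 was higher, Saa3 (median 1.37), Fn1 (-0.29) and Selp (1.37) were not called, and the defining factor Gata6 was at 0 in BM WT and at no more than 0.603 TPM in PT WT. Of 10 B cell markers none was called (median 1.39), although the sum was 102 to 310.4 TPM in BM WT and 686 to 1564 in PT WT, most of it Ighm, at 59, 189 and 167 TPM in marrow and 656, 554 and 1202 in peritoneum (adjusted p 0.0692). Cd79b (1.47) and Ebf1 (1.31) were not called.

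Of 8 mast cell markers tested, 1 was higher, the chymase Cma1, at 0, 0 and 0.39 TPM in marrow and 11.5, 12.3 and 49.3 in peritoneum (log2 fold change 4.19, SE 0.89, adjusted p 0.0175). The list median was 1.80, or 0.45 without library 12, and no member was called without library 4 or without library 12. Cpa3, mast cell carboxypeptidase, was at 3.71, 7.42 and 6.72 TPM in marrow and 27.4, 8.69 and 481 in peritoneum. Hdc was at 72.6, 258 and 339 TPM in marrow and 144, 137 and 1539.7 in peritoneum. Kit was at 15.9, 8.1 and 70.5 TPM in marrow and 11.9, 6.45 and 44.2 in peritoneum, with library 12 the highest of PT WT in all 4. Cma1 lost the call with library 4 or 12 left out (adjusted p up to 0.0645). Of 5 erythroid markers, 3 were lower (median -3.17), and 1 without library 4 and 1 without library 12. They were the globins Hba-a2 (-4.54) and Hbb-bs (-3.87), whose copies can share reads. The third was the carbonic anhydrase Car1, with no TPM in any PT WT library. The summed level of all erythroid markers was 72 to 180.1 TPM in BM WT and 1.96 to 14.6 in PT WT. Of 10 monocyte and dendritic cell markers 1 was lower (median -0.38). Ly6c2 was at 325, 466 and 1006 TPM in marrow and 60, 22.7 and 33.1 in peritoneum (log2 fold change -3.87, SE 0.58, adjusted p 0.00256), and F13a1 (-3.21) and Fcer1g (0.22) were not called. Of 6 eosinophil markers Ear2, which has near-identical copies, was lower (-4.10, list median -0.75) and Siglecf was at 2.86, 3.37 and 2.06 TPM in marrow and 20, 14.8 and 5.7 in peritoneum. Of 5 T and NK cell markers Nkg7 was lower, being listed at 0 in PT WT (list median 0.41, or -0.23 without library 12), and Cd3d (-0.22) and Cd2 (3.04) were not called. None of 4 platelet markers was called (median 1.96). Pf4 was listed at 0 in BM WT and at 31.8, 14.5 and 13.5 TPM in PT WT and Clec1b at 0 and at 2.32, 7.72 and 6.2 TPM, and Itga2b had a log2 fold change of 1.36. Of 4 stem and progenitor markers Procr was higher (2.64, list median 0.40, or -0.31 without library 12) and Cd27 (0.20) was not called, and neither of the 2 mesothelial markers, Wt1 (0.51) and Krt7 (0.07), was called (median 0.29, or -0.27 without library 4). Of the 4 Y-linked genes, Eif2s3y and Uty were tested and not called (adjusted p 0.323 and 0.261). With the genes of long A or T runs left out, the list median was 0.28 for neutrophil, 0.02 for monocyte and dendritic cell and 1.20 for eosinophil markers, so their direction depended on the scaling, as did that of the heat shock list (0.43). Once S100a8 and S100a9 were left out as well, it was 0.83 for the 8 neutrophil markers left and -0.43 for monocyte and dendritic cell markers. For eosinophil markers it was then 0.96 and for the heat shock list -0.03. After quantile normalization the stem and progenitor list had a median of -0.084. Car1 and Ly6c2 kept the call whichever library was left out. Hba-a2 lost the call with library 4, 6, 10, 11 or 12 left out (adjusted p up to 0.092). Hbb-bs, Ear2 and Procr lost the call with library 4, 5, 6, 10 or 12 left out (adjusted p up to 0.116, 0.11 and 0.112, in that order). Nkg7 lost the call whichever library was left out (adjusted p up to 0.147).

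Whether the change from marrow to peritoneum differed between WT and MRP8-Bcl2 mice was tested for every gene. The difference was called for 2 of the 11571 genes (0.0173%), none of them among the 461 genes called in WT, and for 1 gene without library 9, the library labelled PT Bcl2 with Bcl2 at the level of WT. At an unadjusted p under 0.05 it was found for 2066 of the 11571 genes, 105 of them among the 461. These 2066 are more than the share of 0.05 that this threshold would give with no difference. The 2 calls therefore do not show that the genotypes changed alike. Ly6g, with a log2 fold change of -7.25 in WT and -1.60 in MRP8-Bcl2, gave for the difference an unadjusted p of 0.00195, 0.18 after adjustment (limma), and Mthfsl, with 4.87 and -0.08, an adjusted p of 0.132.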

How the data were processed

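The authors deposited log2(TPM + 1) values per gene and library, made with AltAnalyze at default settings from paired-end reads of amplified cDNA. The aligner, its version, the build and the annotation are not given in the sources used here. Means, fold changes, p-values, marker correlations and lineage scores of the authors were not used. Neither were 2 columns of values of 1 library that no label assigns.

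Values were turned back to TPM. Genes that reached 1 TPM in 3 or more of the 6 WT libraries were fitted with limma 3.58.1 (R 4.3.3, eBayes with a trend, 8 residual degrees of freedom) on log2(TPM + 1), with all 12 libraries in 1 fit of 4 groups, and p-values were adjusted over the 11571 genes by Benjamini-Hochberg. Calls needed an adjusted p under 0.05 and 2-fold, and for the difference between genotypes the adjusted p alone. Symbols and coordinates are from GENCODE M21 (GRCm38), which holds 27458 of the 28987 genes. Where a symbol stood for several records, the one with annotated transcripts was used.

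The genes named were the 15 protein-coding genes with the largest change in each direction among called genes without overlap, from each of 46 gene lists the 4 called members with the largest change or, with fewer than 2 called, the 3 members with the highest mean TPM, and Calr, Cd47, Neu1 to Neu4, Lrp1, Sirpa and Bcl2. Genes outside the rule were named after their values were seen. The members and lists were chosen with earlier results of these data known. The promoter motifs were chosen after the calls. Some members counted in the lists are not reported here by name.

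TPM holds no read totals. What 1 read adds to a gene was derived from the steps between low values. Tested on simulated data with 11571 genes for this comparison, 29 of 66 genes changed by 4 on the log2 scale, 1 of 67 changed by 2 and 0 of 67 changed by 1 were recovered, with 1 unchanged gene called, so a gene that was not called can still differ. Fewer genes were changed in the simulation than were called in the real data, so recovery may be understated. The median SE of a log2 fold change was 0.80. Alternatives covered the pseudocount, the filter, the scaling, the threshold, the spread estimate and the libraries.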

Additional observations from a re-analysis of the deposited data

Results flagged for a closer look

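For 2 genes the change from marrow to peritoneum differed between WT and MRP8-Bcl2 mice by the limma test of the difference itself. Gm12191, a processed pseudogene on chromosome 11, reached 175, 196 and 44.9 TPM in marrow and 145, 126 and 309.5 in peritoneum of WT, against 471, 482 and 730.3 TPM in BM Bcl2 and no more than 0.0896 TPM in PT Bcl2. Its change was 9.64 higher in WT on the log2 scale (adjusted p 0.000115), and within WT it was not called (adjusted p 0.654). Gm8186, a processed pseudogene on chromosome 17, reached 14.7, 0 and 0 TPM in marrow and 24.8, 31.2 and 9.47 in peritoneum of WT, against 66.9, 43 and 136 TPM in BM Bcl2, and was listed at 0 in every PT Bcl2 library, a difference of 9.25 (adjusted p 0.0397). Reads of pseudogenes can come from their parent genes. With 3 libraries in a group, single libraries were not tested as outliers.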

How the results depend on the processing

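The number of higher genes, 268 as reported, was 616 with the genes of long A or T runs left out, 156 with no filter and 57 at an adjusted p under 0.01, and lay between 76 and 188 in the fits that left out 1 library. The number of lower genes, 193 as reported, was 352 after quantile normalization, 118 with no filter and 55 at an adjusted p under 0.01, and lay between 62 and 140 with 1 library left out. Under the other settings tried (a pseudocount of 0.1, a filter of 5 TPM, centring, the 6 WT libraries alone, library 9 left out, no trend, protein-coding genes only, no minimum change) both counts stayed within 1.5 times those reported. So they did with the genes of long A or T runs, S100a8 and S100a9 left out together (275 and 184), a setting chosen after seeing the data. The difference between genotypes was called for 6 genes with the pseudocount of 0.1 and with the genes of long A or T runs left out, and for 1 with centring, after quantile normalization, without library 9 and with S100a8 and S100a9 left out as well, where 2 were reported. The cause of these differences was not tested. No paired analysis was possible because no column name says which mouse a library came from. For the log2 fold changes of the named genes, 2610 values under an alternative kept the direction and the side of the threshold, 540 kept the direction and were no longer called, 15 were newly called and 48 changed sign, none of these last in a gene that was called. The log2 fold changes of those are given next. With the genes of long A or T runs left out, values were 0.45 for Ncf4, 0.30 for Hsp90aa1, 0.33 for Pilra, 0.26 for Fn1, 0.31 for Cd3d, 0.065 for Kit, 0.47 for Lrp1 and 0.23 for Sirpa. With centring, values were -0.012 for Hspa8, -0.090 for Krt7 and -0.049 for Bcl2. After quantile normalization, values were -0.15 for Hspa8, -0.041 for Cmas, -0.18 for Krt7, -0.17 for Cd27 and -0.33 for Bcl2. With the pseudocount of 0.1, values were -0.057 for Cd27 and 0.018 for Lrp1. With S100a8 and S100a9 left out as well, values were 0.023 for Lrp1. With 1 library left out, values of both signs were found for Ncf4 (-0.43 to 0.077), Hspa8 (-0.44 to 0.69), Hsp90aa1 (-0.74 to 0.12), Pilra (-0.94 to 0.39), Cmas (-0.61 to 0.96), Lpl (-0.26 to 1.29), Fcer1g (-0.10 to 0.54), Cd3d (-0.70 to 0.061), Hdc (-0.40 to 1.34), Kit (-1.18 to 0.40), Itga2b (-0.15 to 2.96), Krt7 (-0.74 to 0.72), Cd27 (-1.04 to 0.89), Neu1 (-0.17 to 1.09), Lrp1 (-0.71 to 0.52) and Bcl2 (-0.34 to 0.40). In the simulated data, changes of 2 on the log2 scale were mostly not recovered. Those data held fewer changed genes than the 461 called here, which makes the adjusted threshold stricter. In the real data, calls reached down to 1.47 upward and -1.63 downward, so the simulation does not settle what was detectable.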

Other observations

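Several genes outside the lists kept their call whichever of the 6 libraries was left out, and they were picked for description after their values were seen. Cd274, which encodes the checkpoint ligand PD-L1, was at 20.1, 11.9 and 16.2 TPM in marrow and 231, 150.4 and 128 in peritoneum (log2 fold change 3.31, SE 0.56, adjusted p 0.0049 by limma). Cd80, a ligand of CD28, was at 5.69, 11.5 and 8.26 TPM in marrow and 114, 45.6 and 339 in peritoneum (log2 fold change 3.74, SE 0.71, adjusted p 0.00955). Spp1 (osteopontin) was at 17.6, 24 and 31.8 TPM in marrow and 188, 286 and 1551 in peritoneum (log2 fold change 4.14, SE 0.79, adjusted p 0.00969). The fibrinogen-like Fgl2 was at 12.3, 55.9 and 42.2 TPM in marrow and 389.6, 392 and 391 in peritoneum (log2 fold change 3.62, SE 0.56, adjusted p 0.00315), with the 3 PT WT libraries almost level for Fgl2. The transcription factor Zeb2 was at 39, 27.1 and 21.1 TPM in marrow and 275, 213 and 323 in peritoneum. Marcks, a substrate of protein kinase C, was at 29.2, 128 and 36.2 TPM in marrow and 596, 612 and 529 in peritoneum. Txnip, the thioredoxin-binding protein, was at 106, 269 and 173 TPM in marrow and 1233, 806 and 3096 in peritoneum.

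Among the genes that fell in the same way was Padi4, the enzyme that citrullinates histones in neutrophil extracellular traps, at 92.4, 115 and 92.5 TPM in marrow and 3.24, 4.24 and 1.96 in peritoneum (log2 fold change -4.64, SE 0.74, adjusted p 0.00389). Serpinb1a, an inhibitor of neutrophil proteases, was at 328, 153 and 151 TPM in marrow and 6.26, 8.1 and 23 in peritoneum (log2 fold change -4.08, SE 0.60, adjusted p 0.00245). Adpgk, an ADP-dependent glucokinase, was at 482, 542 and 498 TPM in marrow and 19.4, 23.4 and 13.2 in peritoneum (log2 fold change -4.72, SE 0.61, adjusted p 0.00097). G6pdx, which feeds the pentose phosphate pathway, was at 400.3, 467 and 419.9 TPM in marrow and 65.1, 59.9 and 40.7 in peritoneum (log2 fold change -2.96, SE 0.49, adjusted p 0.0049). In none of these 11 genes did the groups overlap, as in all called genes but Mmp8, so this adds no support.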
